A study of Mus musculus with 31 samples.

Results

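The genes described here are the amino acid transporter families of the solute carrier superfamily that act at the plasma membrane and the lysosome, in the livers of fed and fasted mice. They were chosen by gene symbol alone, as every gene of the families Slc1, Slc3, Slc6, Slc7, Slc36, Slc38 and Slc43 that has a probe set annotated to that single symbol. Of 22180 genes measured this way, 59 belonged to the set: 7 in Slc1, 2 in Slc3, 17 in Slc6, 15 in Slc7, 4 in Slc36, 11 in Slc38 and 3 in Slc43. Slc6a9 matches the symbols but has no probe set of its own and is not analysed here. Not every member carries amino acids: Slc6a8 takes up creatine, several Slc6 members take up neurotransmitters, and Slc43a3 carries purine nucleobases.

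Total RNA came from whole livers of 31 male C57BL/6 mice aged 3 to 4 months, collected in the morning, and was hybridised to Affymetrix whole-transcript arrays, 1 array per mouse. Mice had either been fed freely for 8 weeks or been through 2 fasts of 16 h in that period with recovery after each, and were then killed fed or when a 16 h fast ended. The 4 groups were fed mice with 0 earlier fasts (labelled Fed-Fed-Fed, n = 8), fasted mice with 0 earlier fasts (Fed-Fed-Fast, n = 8), fed mice with 2 earlier fasts (Fast-Fast-Fed, n = 8) and fasted mice with 2 earlier fasts (Fast-Fast-Fast, n = 7). No genetic change, drug or diet other than the fasts is named for any group, so the design crosses fasting history with the final state. The series' title concerns a possible memory of fasting in the liver.

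Values are log2 signals on the scale of RMA (robust multi-array average), which has no unit. Signals of different probe sets depend on their probes as well as on RNA, so changes were compared between groups within a gene; where genes are called dim or bright below, this describes the signal of their probe sets and not amounts of RNA. Array medians lay between 2.01 and 2.07 and Pearson's r between arrays, over all probe sets, between 0.965 and 0.983, with no array set apart in the labels. Hepatocyte markers such as Alb (mean 12.99) gave a 12-gene mean of 11.24 to 11.37 on every array; the 10 lymphocyte markers measured averaged 1.99 to 2.51. A whole-liver sample mixes cell types, so for every gene fewer cells of a type and less RNA per cell cannot be told apart. Precision is limited by how many arrays each group holds.

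Amino acid transporters set how fast the liver can draw amino acids from portal blood for protein synthesis, urea formation and gluconeogenesis, and how it exchanges glutamine and glutamate with the rest of the body. The Slc7 light chains work as exchangers bound to a heavy chain, Slc3a2 or Slc3a1, which brings them to the membrane, while Slc38 members carry glutamine and other neutral amino acids with sodium, and Slc36 and some Slc38 members sit on the lysosome, where amino acids are released and sensed. Hepatocytes are known for sodium-dependent alanine and glutamine transport that hormones of the fasting state can raise.

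Promoter sequence from RefSeq, as the 250 bases before the gene's start in GRCm38.p6, was matched by symbol for 42 of the 59 members, and 32851 such windows of the genome served as the background. The called members Slc6a6, Slc6a8, Slc7a2, Slc38a3 and Slc43a3 had no entry. In all, 10 motifs were searched on both strands. The heavy chain genes are shown first because they responded to fasting in opposite directions, and the lysosomal carriers Slc36a1 and Slc38a7 because each window holds the same letters. Capitals mark the motif found.

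Slc3a1 (chr17:85028097-85028346, + strand, TATA box letters TATAAA on either strand): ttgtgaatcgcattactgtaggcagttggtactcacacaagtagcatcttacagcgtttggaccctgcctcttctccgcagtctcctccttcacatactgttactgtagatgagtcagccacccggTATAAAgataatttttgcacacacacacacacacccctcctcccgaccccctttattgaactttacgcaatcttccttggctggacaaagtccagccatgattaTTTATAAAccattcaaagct
Slc3a2 (chr19:8713898-8714147, - strand, GC box letters GGGCGG): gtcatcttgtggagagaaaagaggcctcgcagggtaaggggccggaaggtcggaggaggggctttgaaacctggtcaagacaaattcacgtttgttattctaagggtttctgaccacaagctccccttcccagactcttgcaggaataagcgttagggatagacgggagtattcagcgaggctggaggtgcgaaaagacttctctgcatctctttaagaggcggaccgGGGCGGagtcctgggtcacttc
Slc36a1 (chr11:55204090-55204339, + strand, E-box letters CACGTG): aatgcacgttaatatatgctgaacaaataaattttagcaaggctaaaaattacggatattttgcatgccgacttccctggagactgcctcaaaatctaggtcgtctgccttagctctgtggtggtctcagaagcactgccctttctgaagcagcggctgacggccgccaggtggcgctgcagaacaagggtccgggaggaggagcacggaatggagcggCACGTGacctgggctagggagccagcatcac
Slc38a7 (chr8:95853492-95853741, - strand, E-box letters CACGTG): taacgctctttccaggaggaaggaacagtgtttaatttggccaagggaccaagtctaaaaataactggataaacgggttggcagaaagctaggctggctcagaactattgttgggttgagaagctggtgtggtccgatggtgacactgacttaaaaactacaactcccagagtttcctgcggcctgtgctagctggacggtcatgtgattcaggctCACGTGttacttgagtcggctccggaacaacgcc

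The Slc3a1 window holds TATAAA starting at positions -124, -20 and -18 relative to the gene's start, where the match at -20 is read on the opposite strand and overlaps that at -18, and 12.4% of all windows hold these letters. In the Slc3a2 window GGGCGG starts at position -22, with a match in 32.7% of all windows. CACGTG starts at -31 in Slc36a1 and at -34 in Slc38a7, and 6.02% of all windows hold it. The other 7 motifs, none of them in these 4 windows, were the amino acid response element TGATGNAA (3.45% of all windows), the cAMP response element TGACGTCA (1.55%), the FoxO site GTAAACA (3.17%), the antioxidant response element TGACNNNGC (10.2%), the PPAR direct repeat (0.0335%), the glucocorticoid response element and the HNF1 site (0.00913% each), where N is any base. Among the 11 called members with a window, Slc7a7 and Slc6a21 held TGATGNAA, Slc6a13 and Slc6a16 held TGACNNNGC, and Slc6a16 also held CACGTG. Slc7a7 and Slc6a13 each had several windows, not all with the match, whereas the shares above are per window. The Slc36a1 and Slc38a7 windows were picked because they hold CACGTG. Slc36a4 and Slc38a9, given below with the lysosomal carriers, had no match to it. Besides Slc6a16, the members Slc6a3, Slc1a6, Slc1a7, Slc7a14, Slc38a5 and Slc43a1 also had one, so the letters are not particular to lysosomal carriers. A match describes the letters of the window only and was not tested as a binding site.

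A majority of the families' genes gave dim signals in liver. Of the 59 members, 34 had a mean under 2.5 over the 31 arrays (1.08 to 1.99), against a median of 2.26 for all genes, 8 had a mean from 2.5 to under 5, and 17 had a mean of 5 or more. The 17 brighter members were Slc1a2, both heavy chains Slc3a1 and Slc3a2, the Slc6 members Slc6a6, Slc6a12 and Slc6a13, the cationic amino acid carrier Slc7a2, Slc36a1, Slc36a4, Slc38a2, Slc38a3, Slc38a4, Slc38a6, Slc38a7, Slc38a9, Slc38a10 and Slc43a3. Transporters known from other organs, among them the kidney and gut carriers Slc6a19 (mean 1.46) and Slc7a9 (1.34) and the cystine carrier Slc7a11 (1.42), were in the dim class. Of the 34 dim members, 32 passed no test in either response to the fast. Their log2 changes ran from -0.28 to 0.27, with 95% intervals within -0.52 to 0.47.

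Comparing fasted with fed mice that had 0 earlier fasts asks what a 16 h fast does to these transporters in an animal without a fasting history. Slc7a2, Slc6a16 and Slc43a3 were among the 8 members that rose, and Slc3a1, Slc6a6 and Slc36a1 among the 7 that fell, where 6.25% and 6.23% of all genes rose and fell. Together these were 15 of 59 members (25.4%) at an adjusted p under 0.05 in limma, where 12.5% of all 22180 genes were called. Among members with a mean of 5 or more, 10 of 17 were called, against 32.4% of the 5938 genes that bright. The same fast in mice with 2 earlier fasts, on a separate set of arrays, raised 6 members and lowered 5, where 6.06% and 5.52% of all genes rose and fell (11 of 59, 18.6%, against 11.6% of all genes; 9 of the 17 brighter members, against 30.5%). Fed and fasted values did not overlap for 4 members with 0 earlier fasts (4.28% of all genes did not) and for 3 members with 2 (4.37% of all genes). Changes were small: the median size was 0.12 and 0.10 on the log2 scale, beside 0.10 over all genes in both responses.

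Among the heavy chains, Slc3a1 fell and Slc3a2 rose. Slc3a1 (probe set 17340135), which codes for rBAT, the heavy chain of the cystine and dibasic amino acid exchanger, gave fed values of 7.69 to 8.61 (median 8.38) and fasted values of 6.28 to 7.41 (median 6.76) with 0 earlier fasts. With 2 earlier fasts the fed mice gave 7.76 to 8.66 (median 8.22) and the fasted mice 5.79 to 8.32 (median 7.43). The groups were thus apart with 0 earlier fasts, and overlapped with 2, where fasted replicate 4 (8.32) lay within the fed range and fasted replicate 6 (5.79) was the lowest of all 31 livers. Slc3a1 fell by 1.48 (SE 0.23, adjusted p = 9.73e-06, 2.79-fold lower) with 0 earlier fasts, the largest change of any member, and by 0.90 (SE 0.24, adjusted p = 0.00845, 1.86-fold lower) with 2. Within groups Slc3a1 moved with the 10 lymphocyte markers (r = 0.61 and rho = 0.61, adjusted p = 0.018 and 0.029 in a permutation test; 0.49 without the 2 farthest livers; 0.49, 0.64, 0.77 and 0.66 within groups), of which Ptprc alone had a mean above 2.5 (4.97). That list had means of 2.35 fed and 2.19 fasted with 0 earlier fasts and 2.33 and 2.19 with 2, and its part in the fall was not tested. The known light chain partners of rBAT, Slc7a9 and Slc7a13, had means of 1.34 and 1.22 over the arrays, with changes of 0.08 and 0.05 with 0 earlier fasts that passed no test.

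Slc3a2 (probe set 17362453) codes for 4F2hc, also called CD98, the heavy chain of the large neutral, cystine-glutamate and y+L exchangers. Fed mice with 0 earlier fasts gave 6.83 to 7.17 (median 7.01) and fasted mice 6.88 to 7.42 (median 7.32), overlapping through fasted values at the low end. With 2 earlier fasts the fed range was 6.68 to 7.14 (median 6.91) and the fasted range 7.09 to 7.41 (median 7.26), which overlapped. The rise was 0.26 (SE 0.08, adjusted p = 0.0183) and 0.33 (SE 0.08, adjusted p = 0.00339).

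**Figure D1:**
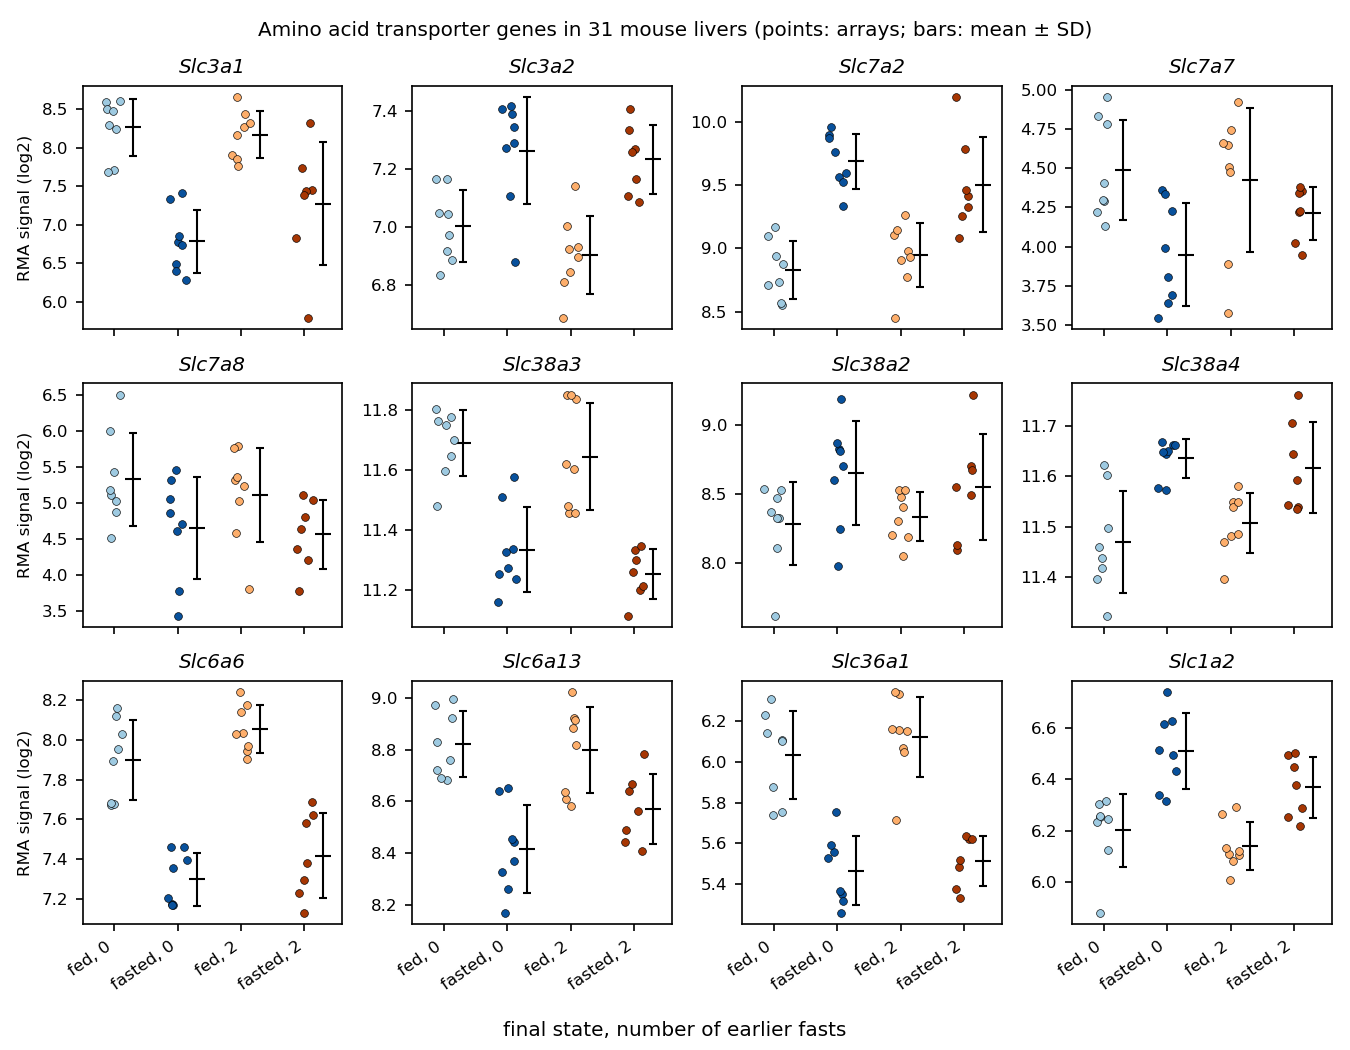
RMA log2 signal of 12 amino acid transporter genes in each of the 31 livers, by final state and number of earlier fasts, with points for arrays and bars for mean ± SD (n = 8, 8, 8 and 7); each panel has its own vertical range, which does not start at 0. Slc3a1, Slc6a6, Slc36a1, Slc38a3 and Slc6a13 sit lower in fasted livers, Slc7a2, Slc3a2 and Slc1a2 sit higher, and Slc7a8 spreads widely within every group.

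Of the 15 Slc7 genes, 1 rose in both responses and 1 fell in 1 of them, which is 13.3% called with 0 earlier fasts and 6.67% with 2, close to or below the 12.5% and 11.6% of all genes. Slc7a2, the cationic amino acid carrier CAT2 that takes up arginine, lysine and ornithine, gave 8.55 to 9.17 (median 8.80) in fed mice and 9.33 to 9.96 (median 9.68) in fasted mice with 0 earlier fasts, without overlap. With 2 earlier fasts it gave 8.45 to 9.27 (median 8.96) fed and 9.08 to 10.20 (median 9.41) fasted, with overlap. It rose by 0.86 (SE 0.13, adjusted p = 6.66e-06, 1.81-fold) and by 0.56 (SE 0.13, adjusted p = 0.00348, 1.47-fold), the first of these the largest rise of any member in that response. Its relative Slc7a1, the widely expressed CAT1, was dim (mean 1.93) with changes of 0.11 and 0.05 that passed no test.

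None of Slc7a5, Slc7a6, Slc7a7, Slc7a8, Slc7a10 and Slc7a11, which are light chains of Slc3a2, rose in either response. Of all genes 6.25% rose with 0 earlier fasts and 6.06% with 2, so no rise among so few genes is near these shares. Slc7a6 (mean 1.67), Slc7a10 (1.82) and Slc7a11 (1.42) were in the dim class. Slc7a7, the y+L exchanger of cationic and neutral amino acids, fell by 0.54 (SE 0.16, adjusted p = 0.0185) with 0 earlier fasts, from 4.13 to 4.95 (median 4.35) in fed mice to 3.54 to 4.36 (median 3.90) in fasted mice, which overlapped. With 2 earlier fasts its change was -0.21 (SE 0.16, adjusted p = 0.521), and the interaction, 0.33 (SE 0.23), was not called (adjusted p = 0.999). Slc7a5, the large neutral amino acid exchanger LAT1, had means of 3.59 fed and 3.28 fasted with 0 earlier fasts and 3.65 and 3.25 with 2, and its changes of -0.31 and -0.40 did not pass (adjusted p = 0.315 and 0.163). Slc7a8, the related exchanger LAT2, had changes of -0.67 (SE 0.29, adjusted p = 0.149) and -0.54 (SE 0.30, adjusted p = 0.308). The first of these had a 95% interval of -1.26 to -0.08 (unadjusted p = 0.027, limma) and the second one of -1.15 to 0.07, so neither passed after adjustment over all genes.

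Slc7a8 was the member that varied most between livers of the same group. Its values ran from 4.51 to 6.50 (median 5.15) in the fed group and from 3.44 to 5.46 (median 4.79) in the fasted group with 0 earlier fasts, and from 3.81 to 5.80 (median 5.28) and 3.78 to 5.11 (median 4.65) with 2. The SD within groups was 0.63, against a median of 0.22 over 2041 genes whose mean lay within 0.5 of its own, at percentile 99.0 of them. Slc3a1 came next (SD 0.50, percentile 98.4 of 936 genes), and Slc43a1, the large neutral amino acid carrier LAT3, followed (SD 0.42, percentile 93.4 of 1740 genes).

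Slc7a8 moved from liver to liver with Kupffer cell markers. After each group's mean was taken off, its signal correlated with the mean of 12 Kupffer cell and macrophage markers over the 31 livers (Pearson's r = 0.80 and Spearman's rho = 0.77, 2-sided permutation p = 1e-05 for both, the smallest that 1e+05 resamples can give, adjusted p = 0.00054 over 108 relations of 27 members with 4 marker lists). Within the groups r was 0.83 in fed and 0.80 in fasted mice with 0 earlier fasts, and 0.94 and 0.60 with 2. Without the 2 livers farthest from the median marker level r was 0.74. Slc7a8 also moved with 12 sinusoidal endothelial markers (r = 0.73, rho = 0.74, adjusted p = 0.00054 for both; 0.66 without the 2 farthest livers; within groups 0.94, 0.55, 0.65 and 0.89). Among 5938 genes with a mean of 5 or more, those most like Slc7a8 over the 31 livers began with C1qb and C1qa (r = 0.85 each), which code for complement C1q chains made by macrophages and are on the marker list itself.

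Some of the Kupffer cell markers themselves fell in fasted livers. With 0 earlier fasts 7 of 12 fell and 0 rose (median change -0.59; 6.23% of all genes fell), among them Clec4f, a Kupffer cell lectin, by 0.64 (SE 0.17, adjusted p = 0.00714), and with 2 earlier fasts 3 of 12 fell (median -0.45; 5.52% of all genes fell). Marco, a scavenger receptor of macrophages, had changes of the other sign, 0.39 (SE 0.41) and 0.36 (SE 0.43), that did not pass (adjusted p = 0.688 and 0.719). Their mean ran from 5.28 to 6.49 in fed and 4.91 to 5.97 in fasted livers with 0 earlier fasts, and from 5.04 to 6.15 and 4.85 to 5.76 with 2. No marker of the list was near the floor: means over the arrays ran from 4.10 for Marco to 6.94 for Lyz2. The counts rest on few arrays. With 0 earlier fasts 4 fell without fed replicate 2 or fasted replicate 5 and 3 without fasted replicate 8, and with 2 earlier fasts 0 fell without fasted replicate 2, fasted replicate 5 or fed replicate 7, 1 without fed replicate 1 or fed replicate 3, and 5 without fed replicate 5. For Slc7a7, which is known from macrophages too, the relation with these markers did not pass (r = 0.47, rho = 0.39, adjusted p = 0.16 and 0.41). Within the groups r was 0.71 in fed and -0.04 in fasted mice with 0 earlier fasts, and 0.78 and 0.37 with 2. Its relation with the endothelial markers did not pass either (r = 0.51, rho = 0.44, adjusted p = 0.061 and 0.23 in the permutation test). The part of the marker shift in the changes of Slc7a7 and Slc7a8 was not tested.

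Markers of other cell types moved less evenly. Of 12 stellate cell markers 4 fell and 1 rose with 0 earlier fasts and 3 fell with 2, with Col3a1, a collagen gene, falling by 0.92 (SE 0.14, adjusted p = 1.03e-05) and by 1.09 (SE 0.15, adjusted p = 1.34e-06). Of 12 endothelial markers 2 rose with 0 earlier fasts, and 1 rose and 1 fell with 2. Of 12 hepatocyte markers 3 rose and 3 fell, and 2 rose and 2 fell with 2 earlier fasts. Beside these counts, 12.5% of all genes were called with 0 earlier fasts and 11.6% with 2. Among genes with a mean of 5 or more the shares were 32.4% and 30.5%. The leukocyte gene Ptprc was the only lymphocyte list gene of 10 called (-0.56 and -0.57, SE 0.16 in both, adjusted p = 0.0144 and 0.0176). None of 5 cholangiocyte markers was called, nor was Slc4a1, the red cell gene measured. With any 1 array left out, the endothelial counts were 1 to 2 rises with 0 earlier fasts and 0 to 2 falls with 2, the stellate rises 0 to 1, and the lymphocyte falls 1 to 2 with 0 earlier fasts and 0 to 2 with 2. Under the other settings the endothelial falls with 2 earlier fasts went from 0 with the replicate block to 3 without dim genes (those kept had a log2 value of 4 or more in at least 7 arrays), the endothelial rises with 0 earlier fasts were 1 with the block or with only the groups compared, and the hepatocyte falls with 2 were 1 with only the groups compared. Of the 27 members that were called or had a mean of 2.5 or more, none other than Slc7a8, Slc3a1 and Slc43a3 had an adjusted p under 0.05, by r or rho, with the Kupffer cell, endothelial, stellate or lymphocyte markers.

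**Figure D2:**
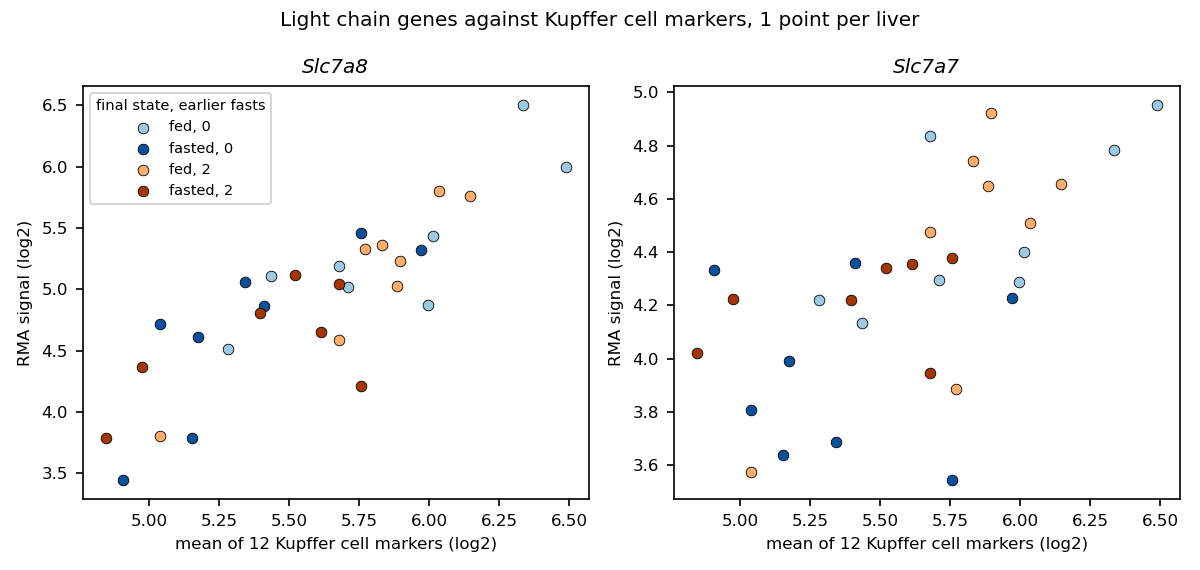
RMA log2 signal of Slc7a8 (left) and Slc7a7 (right) against the mean log2 signal of 12 Kupffer cell markers, 1 point per liver, coloured by final state and number of earlier fasts; neither axis starts at 0. Slc7a8 climbs with the markers in each of the 4 groups (r within groups 0.60 to 0.94), and the points of Slc7a7 scatter more.

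The Slc38 family holds the glutamine and alanine carriers of the hepatocyte. Slc38a3, the system N carrier SNAT3 that moves glutamine, asparagine and histidine, gave 11.48 to 11.81 (median 11.72) in fed and 11.16 to 11.58 (median 11.30) in fasted mice with 0 earlier fasts, and 11.46 to 11.85 (median 11.61) and 11.11 to 11.35 (median 11.26) with 2, where the groups did not overlap. It fell by 0.36 (SE 0.07, adjusted p = 0.000523) and by 0.39 (SE 0.08, adjusted p = 0.000286). Slc38a4, the system A carrier SNAT4 typical of liver, went the other way by a small step: 11.32 to 11.62 (median 11.45) fed and 11.57 to 11.67 (median 11.65) fasted with 0 earlier fasts, a rise of 0.17 (SE 0.05, adjusted p = 0.0301). With 2 earlier fasts its change was 0.11 (SE 0.05, adjusted p = 0.225). That rise lost its call without fed replicate 1, 3, 4 or 5 or fasted replicate 8 (0.14 to 0.16, adjusted p 0.0501 to 0.0764), and when only both groups compared were fitted (adjusted p = 0.084).

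Slc38a2, the system A carrier SNAT2 whose gene is known to respond to amino acid shortage, did not pass in either response. Its fed and fasted values were 7.62 to 8.54 (median 8.35) and 7.98 to 9.19 (median 8.75) with 0 earlier fasts, and 8.05 to 8.53 (median 8.35) and 8.09 to 9.22 (median 8.55) with 2. The change of 0.37 (95% interval 0.06 to 0.67, adjusted p = 0.122) and that of 0.21 (-0.10 to 0.53, adjusted p = 0.488) did not pass after adjustment over all genes, though the first interval leaves out 0. Its spread was wide for its signal (SD within groups 0.32, percentile 92.5 of 577 genes). Slc38a2, Slc38a1 and Slc38a4 are neighbours on the chromosome.

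On the lysosome, Slc36a1 fell in both responses. It codes for PAT1, which moves small neutral amino acids out with protons, and its window is the third sequence shown above. With 0 earlier fasts it gave 5.74 to 6.31 (median 6.10) fed and 5.26 to 5.75 (median 5.45) fasted, meeting at the edge, and with 2 it gave 5.71 to 6.34 (median 6.15) and 5.33 to 5.64 (median 5.52), without overlap. Slc36a1 fell by 0.56 (SE 0.09, adjusted p = 1.88e-05, 1.48-fold lower) and by 0.61 (SE 0.09, adjusted p = 1.24e-05, 1.52-fold lower). Its relative Slc36a4, with fed and fasted medians of 6.20 and 6.31 and of 6.35 and 6.48, did not pass (0.15, SE 0.11, and 0.10, SE 0.12), and its neighbour Slc36a2 was dim.

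Other lysosomal members gave smaller differences. Slc38a7, a lysosomal glutamine exporter, gave 6.26 to 6.63 (median 6.53) fed and 5.91 to 6.45 (median 6.22) fasted with 2 earlier fasts, a fall by 0.27 (SE 0.09, adjusted p = 0.0382), and a change of -0.01 (SE 0.08, adjusted p = 0.961) with 0. The interaction was -0.26 (SE 0.12, adjusted p = 0.999). This call was lost without fed replicate 1, 5, 6, 7 or 8 or fasted replicate 1, 2, 4 or 6 (-0.27 to -0.22, adjusted p 0.0545 to 0.116). Slc38a9, the lysosomal arginine sensor that signals to mTORC1, had medians of 5.37 fed and 5.51 fasted with 0 earlier fasts and 5.41 and 5.71 with 2, and its changes of 0.08 (SE 0.09) and 0.26 (SE 0.10) did not pass (adjusted p = 0.718 and 0.0823).

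In the Slc6 family, which takes up amino acids, osmolytes and transmitters with sodium and chloride, 5 of 17 genes were called with 0 earlier fasts (29.4%, against 12.5% of all genes) and 3 with 2 (17.6%, against 11.6%). Slc6a6, the taurine carrier, gave 7.67 to 8.16 (median 7.93) in fed and 7.17 to 7.46 (median 7.28) in fasted mice with 0 earlier fasts, and 7.91 to 8.24 (median 8.03) and 7.13 to 7.69 (median 7.38) with 2. It is the only member whose fed and fasted values were apart in both responses, and it fell by 0.60 (SE 0.09, adjusted p = 3.28e-06) and by 0.64 (SE 0.09, adjusted p = 2.3e-06). Slc6a13, the GABA and taurine carrier GAT2 of the hepatocyte, went from 8.68 to 9.0 (median 8.80) fed to 8.17 to 8.65 (median 8.41) fasted with 0 earlier fasts, also apart, and fell by 0.41 (SE 0.08, adjusted p = 0.000275).

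With 2 earlier fasts the Slc6a13 change was -0.23 (SE 0.08, adjusted p = 0.0685), and it would pass without fed replicate 1, 7 or 8 or fasted replicate 1 (-0.26 to -0.25, adjusted p 0.0362 to 0.049). Its chromosomal neighbour Slc6a12, the betaine carrier, had fed and fasted medians of 7.60 and 7.59 and of 7.48 and 7.72, and changes of 0.07 (95% interval -0.15 to 0.29) and 0.06 (-0.16 to 0.29). The creatine carrier Slc6a8 gave 4.04 to 4.73 (median 4.33) fed and 4.40 to 5.13 (median 4.73) fasted with 0 earlier fasts, a rise of 0.40 (SE 0.13, adjusted p = 0.0352), and a change of 0.15 (SE 0.13, adjusted p = 0.61) with 2. That call was lost without fed replicate 1, 2, 4 or 7 or fasted replicate 1, 2 or 5 (0.35 to 0.39, adjusted p 0.0564 to 0.0913).

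Slc6a16 and Slc6a21, neighbouring genes whose substrates are not settled, rose in both responses from the dim end of the scale. Slc6a16 went from a median of 1.53 to 2.19 with 0 earlier fasts (0.69, SE 0.11, adjusted p = 1.44e-05) and from 1.60 to 2.06 with 2 (0.44, SE 0.11, adjusted p = 0.00622). Slc6a21 went from 1.5 to 1.91 (0.45, SE 0.11, adjusted p = 0.00541) and from 1.60 to 2.23 (0.69, SE 0.12, adjusted p = 5.44e-05). Fed and fasted values overlapped for both genes in both responses. No detection limit was available at this signal, and their highest single values were 2.64 and 2.94.

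The Slc1 family moves glutamate and small neutral amino acids. Slc1a2, the high-affinity glutamate carrier GLT-1, gave 5.88 to 6.32 (median 6.25) fed and 6.31 to 6.74 (median 6.50) fasted with 0 earlier fasts, and 6.01 to 6.29 (median 6.11) and 6.22 to 6.50 (median 6.38) with 2. It rose by 0.31 (SE 0.07, adjusted p = 0.00176) and by 0.23 (SE 0.07, adjusted p = 0.0334). Fed and fasted values touched with 0 earlier fasts and overlapped with 2. The second of these calls was lost without fed replicate 1, 4, 6 or 7 or fasted replicate 1, 2, 3 or 5 (0.21 to 0.23, adjusted p 0.0513 to 0.0803). Slc1a4, the alanine, serine, cysteine and threonine exchanger ASCT1, fell with 0 earlier fasts from a range of 3.23 to 3.89 (median 3.51) to 2.60 to 3.81 (median 3.00), by 0.45 (SE 0.15, adjusted p = 0.0381), and had a change of -0.15 (SE 0.15, adjusted p = 0.652) with 2. That call was lost without fed replicate 1, 2, 5, 6 or 8 or fasted replicate 2, 3, 4, 5, 6 or 8 (-0.45 to -0.38, adjusted p 0.0512 to 0.0983).

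In the Slc43 family Slc43a3 rose and the LAT-type carriers did not pass. Slc43a3, the purine nucleobase carrier, gave 6.79 to 7.35 (median 7.00) fed and 7.13 to 7.79 (median 7.51) fasted with 0 earlier fasts, and 6.61 to 7.41 (median 7.00) and 7.18 to 7.66 (median 7.43) with 2, overlapping in both. It rose by 0.46 (SE 0.10, adjusted p = 0.00143) and by 0.39 (SE 0.11, adjusted p = 0.0106). Slc43a3 also moved with the sinusoidal endothelial markers within groups (rho = 0.58, adjusted p = 0.029; r = 0.53, adjusted p = 0.051; r = 0.48 without the 2 farthest livers; within groups 0.75, 0.68, 0.17 and 0.53). The mean of those 12 markers was 6.74 in both groups with 0 earlier fasts, and 6.70 fed and 6.68 fasted with 2. That mean joins markers that moved in opposite directions. Their median change was -0.12 and -0.08, while Lyve1 rose by 0.93 (SE 0.23, adjusted p = 0.00458) and 1.06 (SE 0.24, adjusted p = 0.00186). Bmp2 rose by 0.34 (SE 0.11, adjusted p = 0.036) with 0 earlier fasts, and Cdh5 fell by 0.36 (SE 0.11, adjusted p = 0.0295) with 2. The part of these markers in the rise of Slc43a3 was not tested. Slc43a1 changed by 0.05 (SE 0.19) and -0.12 (SE 0.20), and Slc43a2 by -0.10 (SE 0.14) and 0.06 (SE 0.15).

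**Figure D3:**
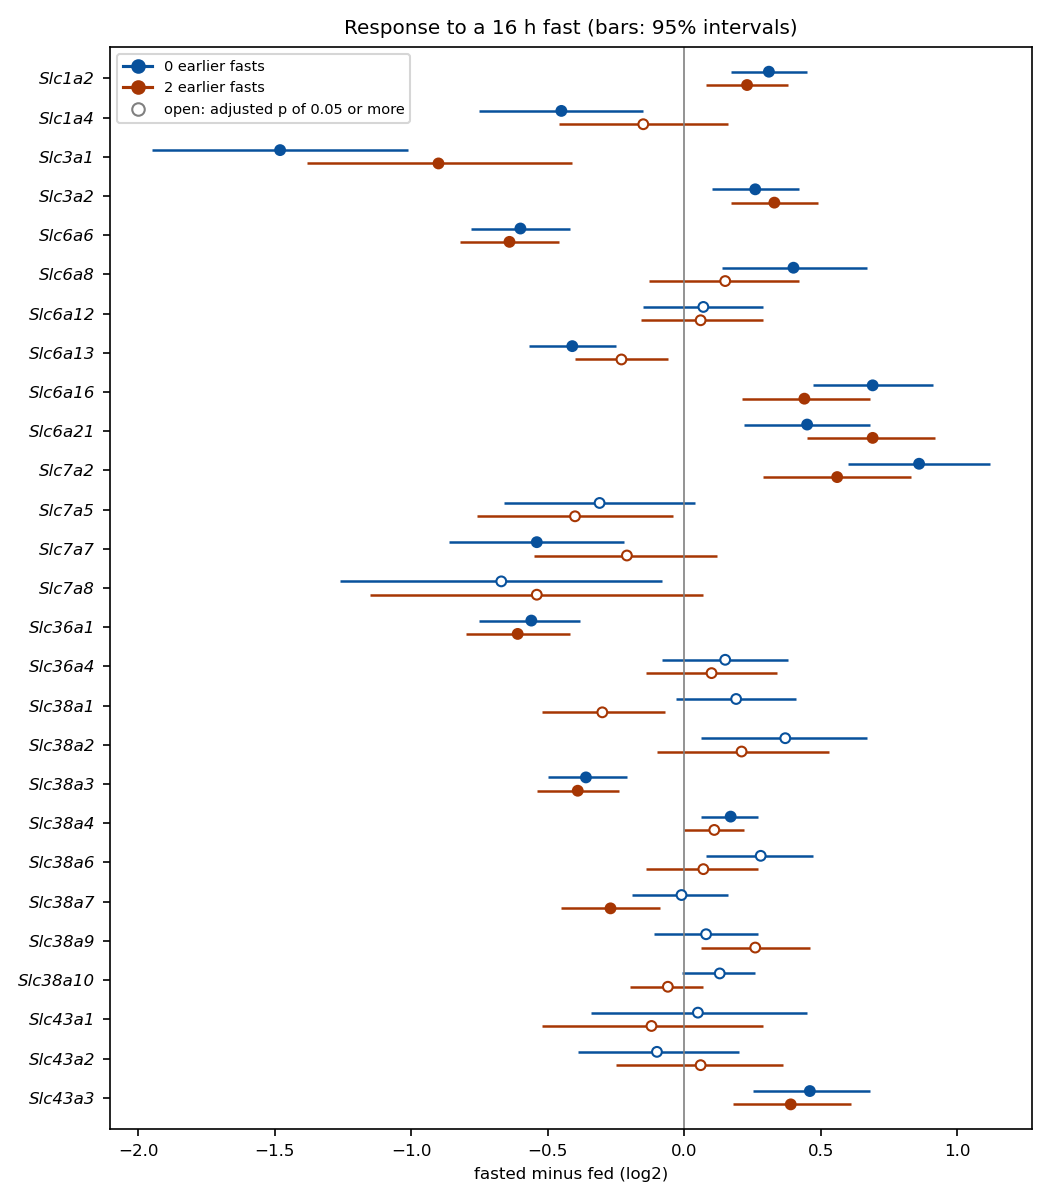
Fasted minus fed difference in log2 signal, with 95% intervals, for 27 amino acid transporter genes in mice with 0 earlier fasts (8 fasted, 8 fed) and with 2 (7 fasted, 8 fed); filled points have an adjusted p under 0.05 over all 22180 genes. The falls of Slc3a1, Slc6a6, Slc36a1 and Slc38a3 and the rises of Slc1a2, Slc3a2, Slc6a16, Slc6a21, Slc7a2 and Slc43a3 are filled in both.

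The responses with 0 and with 2 earlier fasts were measured on arrays with no mouse in common. Over the 59 members 42 had the same sign in both (71.2%, against 65.8% of all genes), and across members the changes correlated with r = 0.85, as they did across all genes (0.85); genes are not independent replicates. Of the 16 members called in either response, 10 were called in both, all 10 with the same sign, 5 with 0 earlier fasts only and 1 with 2 only. A call in 1 response and not in the other is not a difference between them, and that difference was tested as the interaction.

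Fasting history itself gave no called member. The comparison of 2 with 0 earlier fasts called 0 of 59 members in fed mice, 0 in fasted mice and 0 in the interaction, as it called 0% of all genes in each (limma; 3, 2 and 3 members had an unadjusted p under 0.05, and 1245, 996 and 1023 of all genes). Values of the 2 histories overlapped for every member, where 0.00902% of all genes did not overlap in fed mice and 0.0361% in fasted mice. In fasted mice the largest difference was that of Slc3a1, 0.49 higher with 2 earlier fasts (95% interval 0.01 to 0.97, adjusted p = 1), and its interaction of 0.58 (-0.09 to 1.25, adjusted p = 0.999) was the largest of the set. The largest difference in fed mice was that of Slc38a1, a system A carrier, 0.27 (95% interval 0.05 to 0.48, adjusted p = 0.856), from a mean of 2.76 ± 0.25 to 3.03 ± 0.15 (SD, n = 8 and 8). Slc38a1 also had the smallest unadjusted p of any member in the interaction (-0.48, 95% interval -0.80 to -0.17, unadjusted p = 0.00349, limma). For Slc7a2 and Slc38a3 the 95% intervals of the history difference in fasted mice were -0.46 to 0.09 and -0.23 to 0.07, so the data leave room for differences of either sign within these bounds.

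**Figure D4:**
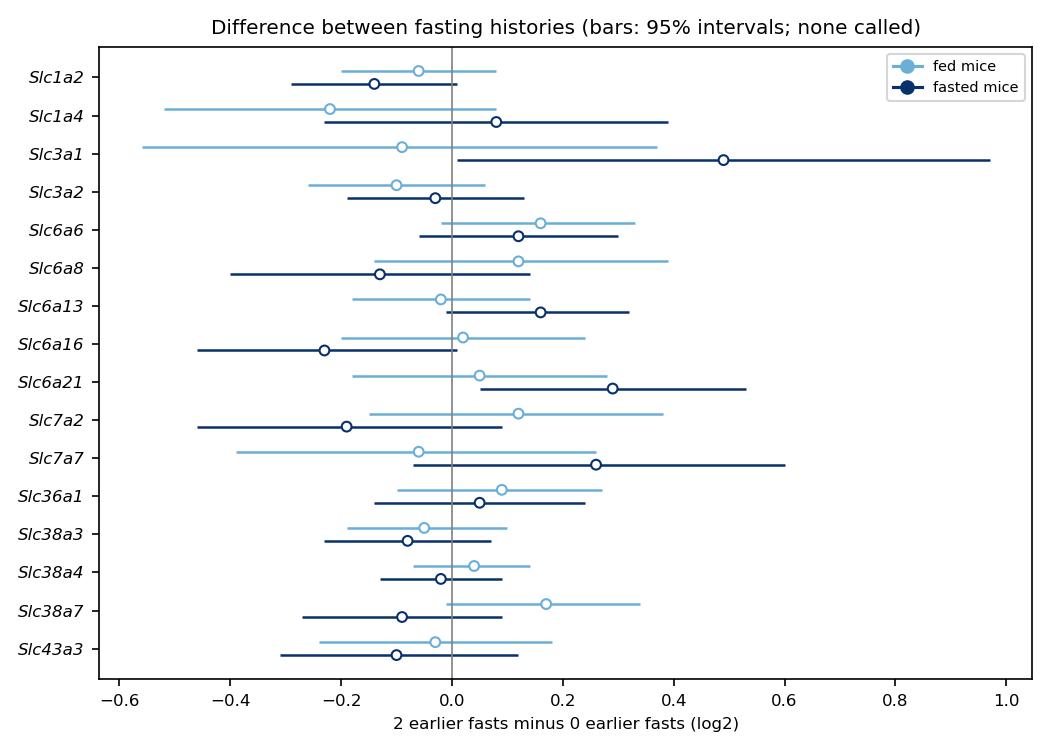
Difference in log2 signal between mice with 2 and with 0 earlier fasts, with 95% intervals, in fed mice (8 and 8) and in fasted mice (7 and 8), for the 16 transporter genes called in either response to the final fast. Open points mark an adjusted p of 0.05 or more, which holds for all of them; the interval of Slc3a1 in fasted mice, 0.01 to 0.97, reaches highest.

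Genes that work with these transporters were counted from lists drawn up by role. Of 16 related amino acid and peptide carriers measured, 1 rose and 1 fell with 0 earlier fasts and 1 fell with 2. These counts stand beside 12.5% and 11.6% of all genes called. Slc25a44, the mitochondrial branched-chain amino acid carrier, fell in both responses (by 0.54, SE 0.10, adjusted p = 0.000101, and by 0.72, SE 0.10, adjusted p = 1.95e-06). Slc15a4, a lysosomal histidine and peptide carrier, rose with 0 earlier fasts (0.47, SE 0.13, adjusted p = 0.0138). Of 37 genes of amino acid sensing at the lysosome, 3 rose and 6 fell with 0 earlier fasts, and 2 rose and 5 fell with 2, where 12.5% and 11.6% of all genes were called in either direction. Sesn2, a leucine sensor, rose by 0.87 (SE 0.17, adjusted p = 0.000231) and 0.84 (SE 0.17, adjusted p = 0.000683), and Fnip2, a partner of folliculin, fell by 0.64 (SE 0.09, adjusted p = 4.24e-06) and by 0.90 (SE 0.10, adjusted p = 1.08e-08). The count of rises with 2 earlier fasts was 1 without fed replicate 1, 2 or 6 or fasted replicate 1, 3, 4 or 5, and also after cyclic loess, with array weights and with only the groups compared. Without dim genes the count of falls with 2 earlier fasts was 8.

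Of 20 genes of the amino acid shortage response, which runs through the kinase Eif2ak4 (GCN2) and the factor Atf4, 5 rose and 4 fell with 0 earlier fasts and 3 rose and 3 fell with 2, beside the same shares of all genes. Without dim genes the first rises were 3 and the falls with 2 earlier fasts 1. Atf5 rose by 1.07 (SE 0.10, adjusted p = 7.74e-10) and 1.15 (SE 0.11, adjusted p = 4.27e-10), while the Atf4 transcript fell by 0.46 (SE 0.10, adjusted p = 0.000782) and by 0.39 (SE 0.10, adjusted p = 0.0077). Asns, the asparagine synthetase typical of that response, had changes of 0.38 (SE 0.26) and 0.60 (SE 0.27) that did not pass (adjusted p = 0.457 and 0.185). Of the same list, Gpt2 rose by 1.08 (SE 0.10, adjusted p = 7.62e-10) and 0.98 (SE 0.11, adjusted p = 1.34e-08). Cth rose by 0.58 (SE 0.11, adjusted p = 0.000159) and 0.47 (SE 0.11, adjusted p = 0.00284), and Trib3 by 0.77 (SE 0.14, adjusted p = 0.000167) with 0 earlier fasts. Eif2ak4 had changes of -0.24 (SE 0.09, adjusted p = 0.0707) and -0.31 (SE 0.09, adjusted p = 0.0167), the second of them called. Of 10 enzymes of glutamine and glutamate turnover, 6 rose and 2 fell, and 5 rose and 2 fell with 2 earlier fasts. In the same responses 12.5% and 11.6% of all genes were called, and 32.4% and 30.5% of genes with a mean of 5 or more. Got1, the cytosolic aspartate aminotransferase, rose by 1.15 (SE 0.25, adjusted p = 0.000953) and 1.13 (SE 0.26, adjusted p = 0.00185), and Oat, which links ornithine to glutamate, rose by 0.82 (SE 0.12, adjusted p = 4.56e-06) and 0.59 (SE 0.12, adjusted p = 0.000973). Gpt2, given above, is on this list too. Gclc fell by 0.60 (SE 0.12, adjusted p = 0.000522) and by 0.51 (SE 0.13, adjusted p = 0.00533). Glutamine synthetase, Glul, had changes of -0.11 (SE 0.08) and -0.23 (SE 0.09) that did not pass (adjusted p = 0.517 and 0.0873).

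Among 13 genes of transporter turnover and hormone signalling, 5 rose and 2 fell with 0 earlier fasts, and 3 rose and 1 fell with 2. The shares called were 12.5% and 11.6% of all genes, and 32.4% and 30.5% of genes with a mean of 5 or more. Sgk1, a kinase known to keep carriers at the membrane, rose by 0.52 (SE 0.18, adjusted p = 0.044) and 0.65 (SE 0.18, adjusted p = 0.0134), and Nedd4l, a ubiquitin ligase that removes carriers from it, rose by 0.44 (SE 0.11, adjusted p = 0.00502) and 0.45 (SE 0.12, adjusted p = 0.00715). Among the falls were Nfe2l2 with 0 earlier fasts (by 0.37, SE 0.08, adjusted p = 0.00067) and Nr3c1 with 2 (by 0.42, SE 0.08, adjusted p = 0.000443). With 0 earlier fasts the count of rises was 3 without fed replicate 5, fasted replicate 5 or fasted replicate 6. No gene of the 5 lists was called for fasting history in fed or fasted mice or for the interaction. The median change of each list lay between -0.03 and 0.27 with 0 earlier fasts and between -0.07 and 0.13 with 2, beside 0.00 over all genes.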

How the data were processed

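The deposited values are log2 signals that the authors made with RMA, per the submitters' processing notes; the sources used here give no version, and no detection calls were used. RNA (100 ng a liver) was labelled with biotin by the Whole-Transcript Sense Target Assay, per the labels' protocols. The labels give each array its own title and mouse, and no processing batch. Of 41345 probe sets, 23521 carry 1 gene symbol in the platform annotation, 1814 several and 16010 none. Each gene is represented by its brightest probe set, averaged over the 31 arrays; 4 members had a choice of several.

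All 4 groups were fitted together in limma 3.58.1, R 4.3.3 and data.table (1.17.8), as group means with moderated variances, for 5 comparisons, 2-sided, with Benjamini-Hochberg adjustment over 22180 genes. A gene was called at an adjusted p under 0.05. The fit was also run on simulated data in which genes varied independently of each other, unlike genes of a liver, and no result here rests on that run. Correlations with marker means used group-centred values and permutations within groups. Python 3.11.15 with numpy 2.4.6 and pandas 2.3.3 was used for tables, and matplotlib 3.10.9 for plots.

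The members, gene lists and tests were chosen with earlier results of these data known. Members are given with group values if called, or if on a fixed list with a mean of 5 or more. Genes of the 5 lists drawn up by role were picked from the 4 largest called changes or from a fixed list. Not every gene that met this rule is given. Slc7a8, Slc7a7's marker relation, Slc38a1, the marker relations of Slc3a1 and Slc43a3, and C1qa and C1qb were singled out after their values were seen. Alternatives were other variance models, probe set rules, filters, normalizations, weights, group subsets, a replicate block and each array left out.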

Additional observations from a re-analysis of the deposited data

Results flagged for a closer look

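Within groups of 7 or 8 arrays, the highest or lowest value was checked for a gap to the next value that is wide for the group's range (Dixon's test at 95%). Of 88 such groups, in the 22 members that were called or had a mean of 5 or more, 6 held such an array, where chance gives about 1 in 20.

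Among fed mice with 0 earlier fasts, replicate 3 gave 5.88 for Slc1a2, the glutamate carrier, against 6.12 to 6.32 in the others, and replicate 5 gave 7.62 for Slc38a2, the system A carrier, against 8.11 to 8.54. In fasted mice with 0 earlier fasts, replicate 4 gave 6.71 for Slc36a4 against 6.27 to 6.41, and replicate 1 gave 6.64 for Slc38a7, the lysosomal glutamine carrier, against 6.13 to 6.35. In fed mice with 2 earlier fasts, replicate 6 gave 5.71 for Slc36a1, the lysosomal PAT1, against 6.05 to 6.34. In fasted mice with 2 earlier fasts, replicate 7 gave 5.17 for Slc6a8, the creatine carrier, against 4.40 to 4.67. No array was flagged for more than 1 member.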

How the results depend on the processing

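Of the 15 members called with 0 earlier fasts and the 11 called with 2, 12 and 9 were called under every other setting that tested them and with each array left out. Slc6a8 lost its call with 0 earlier fasts under the replicate block (0.40, adjusted p = 0.0625), and Slc38a4 under the block (0.17, adjusted p = 0.0514) and with only the groups compared (0.17, adjusted p = 0.084). Slc1a2 with 2 earlier fasts lost it after cyclic loess (0.21, adjusted p = 0.0811) and under the block (0.22, adjusted p = 0.0672), and Slc38a7 after median centring (-0.25, adjusted p = 0.0507) and with array weights (-0.25, adjusted p = 0.0581). Slc6a13 with 2 earlier fasts gained one with an intensity trend (-0.23, adjusted p = 0.0416) and without dim genes (-0.23, adjusted p = 0.0267). The cause was not tested. With each array left out in turn, 6 to 9 members rose and 6 to 8 fell with 0 earlier fasts, 5 to 7 rose and 4 to 6 fell with 2, and 0 were called for history or the interaction. The uncalled change of Slc38a7 with 0 earlier fasts turned sign without 4 arrays, within a range of -0.06 to 0.04.

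With the replicate number as a block, 6 rose and 7 fell with 0 earlier fasts and 5 rose and 5 fell with 2, and 0 were called for history or the interaction. Same-numbered arrays deviated together little (r from -0.064 to 0.116, median 0.033, over 45 pairs), so the numbers are not taken to pair the mice. Low signal limits 34 of the 59 members, for which RMA values give no lower bound of detection.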
